A study of Mus musculus with 6 samples.

Results

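Aminoacyl-tRNA synthetases are the enzymes that join each amino acid to its tRNA, and their mRNAs were followed here in macrophages that lack the transcriptional co-regulator CITED2. The 36 synthetase genes described were taken by symbol from the 22248 genes of the expression table, as genes named by an amino acid letter and "ars", together with *Eprs*, *Ears2*, *Pars2*, *Farsa*, *Farsb* and *Fars2*. They comprise 20 cytosolic and 16 mitochondrial genes, and a final 2 in the symbol marks the mitochondrial ones. The cells were bone-marrow-derived macrophages (BMDMs), grown from mouse bone marrow in M-CSF and left unstimulated. Control BMDMs came from *Lyz2cre* mice (3 libraries), and CITED2-deficient BMDMs came from *Cited2 fl/fl*:*Lyz2cre* mice (3 libraries), all C57BL/6 and labelled as postnatal week 10. The controls therefore carry the Cre allele but no floxed *Cited2*, and Cre is made from the *Lyz2* locus, which is active in myeloid cells.

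The cytosolic enzymes supply the ribosomes that translate nuclear mRNAs, whereas the mitochondrial enzymes, also encoded in the nucleus, serve the small set of proteins that mitochondria translate themselves. Most amino acids have a separate gene for each compartment, but *Kars* and *Gars* each encode both forms, and mitochondria make glutaminyl-tRNA by amidation of a mischarged tRNA without an enzyme of their own. Uncharged tRNA and other stresses activate eIF2α kinases, and the transcription factor ATF4 that is then translated is known to induce amino acid transporters, amino acid synthesis genes and cytosolic synthetase genes such as *Aars* and *Cars*. In macrophages this integrated stress response accompanies infection and interferon signalling, in which the eIF2α kinase PKR is itself induced.

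ATF4 and its C/EBP partners are known to bind a composite site, for which the letters TGATGNAA were searched on both strands of the RefSeq promoter windows. A window runs from 250 bases before to 50 bases after a transcription start. The letters occurred in 3.97% of all 32851 windows and in the windows of 4.51% of 27025 genes. Of the cytosolic synthetases, 13 had a window and 5 of these (38.5%) held a match, whereas 0 of 14 mitochondrial synthetases with a window did. Of the ATF4 target genes described later, 7 of 20 with a window (35.0%) held a match. Of the eIF2α kinases and factors of the response described later, 0 of 10 with a window did. The following 30-base stretches show a match of each of these 5 synthetases and, for comparison, those of *Trib3* and *Nupr1*, both well known as stress response genes. They are written 5′ to 3′ on the strand of the gene, with the 8 matching bases in capitals, and a match on the opposite strand reads as TTNCATCA.
Aars: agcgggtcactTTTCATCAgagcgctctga
Gars: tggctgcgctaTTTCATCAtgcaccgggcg
Tars: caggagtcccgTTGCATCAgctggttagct
Iars: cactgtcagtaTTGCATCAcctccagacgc
Yars: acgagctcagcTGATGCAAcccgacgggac
Trib3: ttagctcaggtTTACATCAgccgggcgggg
Nupr1: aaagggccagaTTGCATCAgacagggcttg

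The *Aars* stretch lies at chr8:111033840-111033869 on the plus strand of GRCm38.p6, and the match shown begins 10 bases after the annotated start. A further match in the *Aars* window, not shown, begins 112 bases upstream of the start. The other stretches lie at chr6:55037960-55037989 for *Gars* (plus strand), chr15:11399655-11399684 for *Tars* (minus strand), chr13:49682126-49682155 for *Iars* (plus strand) and chr4:129189895-129189924 for *Yars* (plus strand). *Trib3* has its stretch at chr2:152344028-152344057 (minus strand) and *Nupr1* at chr7:126625562-126625591 (minus strand). The *Gars* match begins 30 bases and the *Tars* match 15 bases upstream of the start, and the *Iars* and *Yars* matches begin 8 and 4 bases downstream of it. No window was given for *Cars*, *Wars*, *Lars*, *Rars*, *Nars*, *Hars*, *Vars*, *Hars2* and *Pars2*. A match of these letters is a description of the sequence, and binding was not measured.

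Expression was deposited as FPKM, the number of sequenced fragments scaled by transcript length and by library depth, so that levels can be set side by side per transcript length. The libraries held 17289286 to 18952077 fragments in control BMDMs and 22583995 to 26100410 in CITED2-deficient BMDMs, as recovered from the steps between FPKM values. *Cited2* had an FPKM of 75.5 ± 3.79 in control and 8.01 ± 1.10 in CITED2-deficient BMDMs (mean ± SD, n = 3 libraries in each group, here and throughout). All 8 macrophage markers examined were detected, and their summed FPKM ran from 5624 to 5694 in control and from 5287 to 5367 in CITED2-deficient BMDMs. They did not move together, since 5 were lower (from *Lyz2*, -1.59 on the log2 scale, to *Mertk*, -0.26) and *Fcgr1* was higher (1.48). The summed FPKM of 10 fibroblast or stromal markers, led by the collagen genes *Col1a1* and *Col1a2*, was 54.0 to 63.8 in control BMDMs and 599, 206 and 208 in CITED2-deficient replicates 1, 2 and 3. Of 7 neutrophil and granulocyte precursor markers tested, 5 were lower, led by *Mpo* (-2.54) and *Elane* (-2.08), and *Ltf* was higher (0.90). The summed FPKM of the 8 listed ran from 727 to 795 in control and from 658 to 777 in CITED2-deficient BMDMs. The part of stromal or neutrophil-lineage cells in the synthetase differences was not tested, and values without CITED2-deficient replicate 1 are given where they matter. In bulk RNA, fewer cells of a type and less RNA per cell cannot be told apart.

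Genes that reached an average of 1 FPKM were tested with limma on log2(FPKM + 1), and a gene was called at a Benjamini-Hochberg adjusted p below 0.05 over all 11687 genes tested. Of these, 51.3% were called, 16.7% higher and 34.6% lower in CITED2-deficient BMDMs, and the median of all genes lay at -0.10 on the log2 scale. Dividing each library by its median ratio to the other libraries brought that median to -0.0069 and gave 44.4% called, 23.1% higher and 21.3% lower, so the share of calls that were higher moved from 32.5% to 52.0%. Because this choice shifts every synthetase upward by about the same amount, values under median-ratio scaling are given for the calls that it changed among the genes described.

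The medians of the cytosolic and the mitochondrial synthetases lay on opposite sides of 0. Under either scaling both lay between the lower and upper quartiles of all genes tested. These quartiles were -0.27 and 0.07 as deposited, and -0.18 and 0.17 under median-ratio scaling. Of the 20 cytosolic genes, 6 were higher, 2 were lower and 12 did not pass the test, with a median log2 fold change of 0.06. Of the 15 mitochondrial genes tested, 0 were higher, 7 were lower and 8 did not pass, with a median of -0.19. Under median-ratio scaling 13 cytosolic genes were higher and 1 was lower (median 0.16), and 0 mitochondrial genes were higher and 1 lower (median -0.10). The higher cytosolic calls thus exceeded the background percentage under either scaling, whereas for the mitochondrial genes 7 of 15 stands beside 34.6% as deposited and 1 of 15 beside 21.3% under median-ratio scaling. Without CITED2-deficient replicate 1, 4 cytosolic genes were higher and 2 lower (median 0.029), and 4 mitochondrial genes were lower (median -0.18). The share of all genes called in that fit was not counted. These counts therefore cannot be set against a background, and whether the cytosolic calls still exceeded one was not tested. The members were chosen with earlier results of these data known. They share their libraries and are not replicates, so no test was made of the 2 groups as sets.

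**Figure D1:**
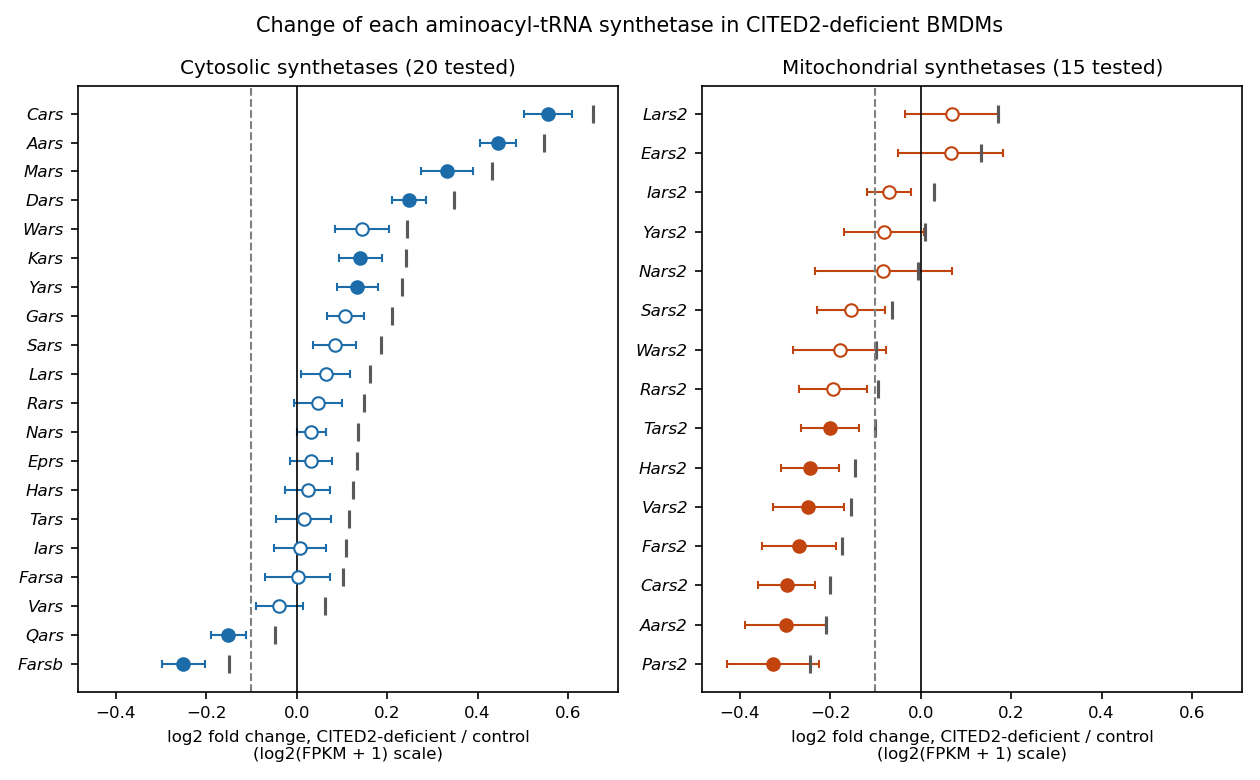
Log2 fold change of each tested synthetase in CITED2-deficient against control BMDMs on the log2(FPKM + 1) scale, with bars of 1 standard error, 20 cytosolic genes on the left and 15 mitochondrial genes on the right. Filled circles passed the limma test and open circles did not, grey ticks give the value under median-ratio scaling, and the dashed line is the median of all genes (-0.10). *Cars* (0.56) and *Pars2* (-0.33) stand at the ends, and 17 of 20 cytosolic genes but 2 of 15 mitochondrial genes lie above 0.

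The values of single libraries were also compared, which is not independent of the test above because both use the same libraries. The ranges of control and CITED2-deficient libraries did not overlap for 7 cytosolic genes in the higher direction and 2 in the lower, against 19.0% and 40.9% of all genes tested, or 59.9% in either direction. Of the 15 mitochondrial genes tested, 0 were separated in the higher direction and 10 in the lower. Summed over the 20 cytosolic genes, the control libraries gave 796, 795 and 787 FPKM and the CITED2-deficient libraries 864, 843 and 824, so the groups did not overlap. Summed over the 16 mitochondrial genes, they gave 214, 221 and 220 in control and 204, 204 and 191 in CITED2-deficient BMDMs, again without overlap and in the other direction. *Lars2* was by far the largest term of the mitochondrial sum and varied widely within each group. Without it the sums were 159, 151 and 162 in control and 136, 135 and 136 in CITED2-deficient BMDMs. All these ranges and sums are of FPKM as deposited. They were not made under median-ratio scaling, which raises CITED2-deficient values relative to control values.

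**Figure D2:**
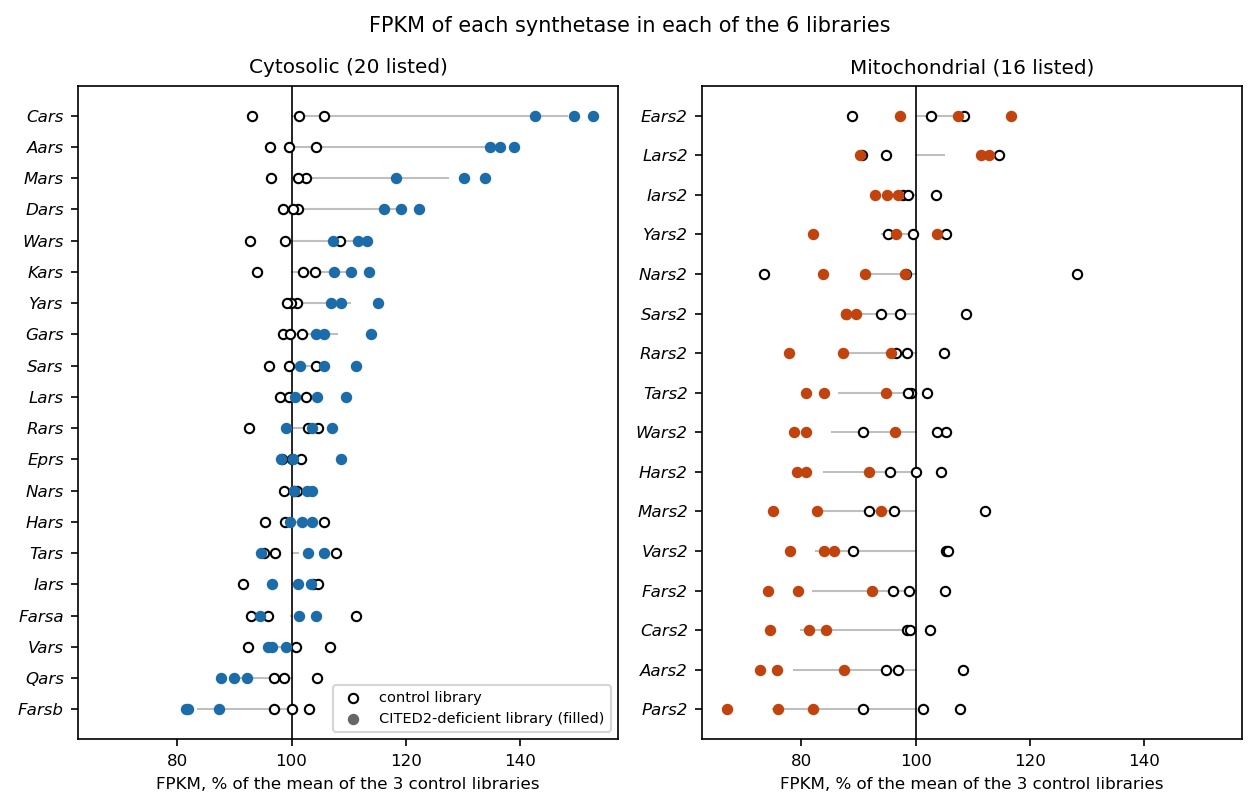
FPKM of 36 synthetases in each of the 6 libraries, as a percentage of the mean of the 3 control libraries, with open circles for control and filled circles for CITED2-deficient libraries and a grey line from 100% to the CITED2-deficient mean. All 3 CITED2-deficient libraries lie above all 3 control libraries for *Cars*, *Aars*, *Mars*, *Dars*, *Kars*, *Yars* and *Gars*, and below them for *Pars2*, *Aars2* and *Cars2* among others.

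Among the cytosolic enzymes the cysteinyl-, alanyl-, methionyl- and aspartyl-tRNA synthetases rose most. *Cars* (ENSMUSG00000010755, chr7:143557230-143600090, minus strand of mm10), the cysteinyl-tRNA synthetase, had FPKM values of 32.4, 28.5 and 31.0 in control and 46.8, 45.7 and 43.7 in CITED2-deficient BMDMs. The lowest CITED2-deficient library lay well above the highest control library. Its mean went from 30.6 ± 1.97 to 45.4 ± 1.59, a difference of 48.3% and a log2 fold change of 0.56 (SE 0.05, limma adjusted p = 3.14e-05). Between 549 and 1326 fragments per library stand behind these values.

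*Aars* (ENSMUSG00000031960, chr8:111033144-111057664, plus strand), the alanyl-tRNA synthetase, had FPKM values of 49.5, 45.6 and 47.3 in control and 64.0, 66.0 and 64.8 in CITED2-deficient BMDMs. The groups were far apart compared with the spread within either. The mean rose from 47.5 ± 1.93 to 64.9 ± 1.00, with a log2 fold change of 0.44 (SE 0.04, limma adjusted p = 1.94e-05). Exons of *Aars* share 14.3% of their bases with *Exosc6* on the same strand, a gene that was not analysed here.

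*Mars* (ENSMUSG00000040354, chr10:127296221-127311786, minus strand), the methionyl-tRNA synthetase that also charges initiator tRNA, was at 19.0, 18.8 and 17.9 in control and 24.2, 24.9 and 22.0 in CITED2-deficient BMDMs. Its groups did not overlap, and it rose by a log2 fold change of 0.33 (SE 0.06, limma adjusted p = 0.00123). It shares 68 exon bases, 1.99% of its exons, with *Ddit3* on the opposite strand, a stress response gene with a log2 fold change of 1.15 in these libraries. *Dars* (ENSMUSG00000026356, chr1:128363707-128417368, minus strand), the aspartyl-tRNA synthetase, was at 39.6, 39.3 and 38.6 in control and 46.7, 45.5 and 47.9 in CITED2-deficient BMDMs. The 3 CITED2-deficient values again lay above every control value, with a log2 fold change of 0.25 (SE 0.04, limma adjusted p = 0.000554).

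These 4 genes stayed called in all 16 alternative analyses, including without CITED2-deficient replicate 1, the library with the most stromal marker RNA. Without it the log2 fold changes were 0.53 for *Cars*, 0.46 for *Aars*, 0.32 for *Mars* and 0.25 for *Dars*. The remaining CITED2-deficient libraries still summed to 206 and 208 FPKM of stromal markers, above the 54.0 to 63.8 of control BMDMs. Leaving out replicate 1 therefore does not test the part of stromal cells. *Kars* and *Yars*, the lysyl- and tyrosyl-tRNA synthetases, rose less and their calls were less stable. *Kars* was at 38.4, 34.7 and 37.6 in control and 41.9, 39.6 and 40.8 in CITED2-deficient BMDMs (log2 fold change 0.14, limma adjusted p = 0.0358). *Yars* was at 23.5, 23.2 and 23.0 in control and 26.7, 25.2 and 24.8 in CITED2-deficient BMDMs (log2 fold change 0.13, limma adjusted p = 0.0358). Neither gene's groups overlapped, but the *Kars* call was lost in 6 and the *Yars* call in 7 of the 16 alternatives, and both were lost without CITED2-deficient replicate 1.

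The glycyl- and tryptophanyl-tRNA synthetases depended on the scaling. *Gars* was at 53.5, 55.3 and 54.1 in control and 61.8, 56.6 and 57.4 in CITED2-deficient BMDMs, without overlap, and had a log2 fold change of 0.11 (limma adjusted p = 0.0577). Under median-ratio scaling its log2 fold change was 0.21 (limma adjusted p = 0.00271). *Wars*, whose enzyme is a well-known interferon-γ-induced protein in human cells, was at 27.0, 31.6 and 28.8 in control and 32.5, 33.0 and 31.3 in CITED2-deficient BMDMs. The highest control library lay within the CITED2-deficient range, and the log2 fold change of 0.14 did not pass as deposited (limma adjusted p = 0.0679) but did under median-ratio scaling (0.24, limma adjusted p = 0.0101). For comparison, the interferon-responsive transcription factor gene *Irf7* had an FPKM of 73.7 ± 7.02 in control and 816 ± 35.5 in CITED2-deficient BMDMs.

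The glutaminyl-tRNA synthetase and 1 subunit of the phenylalanyl enzyme fell. *Qars*, the cytosolic gene with the highest control level, was at 95.2, 103 and 96.9 in control and 90.6, 88.4 and 86.0 in CITED2-deficient BMDMs. Its groups did not overlap, and its log2 fold change was -0.15 as deposited (limma adjusted p = 0.00985) and -0.05 under median-ratio scaling (limma adjusted p = 0.368). *Farsb* (ENSMUSG00000026245, chr1:78417975-78488897, minus strand), the β subunit of the phenylalanyl-tRNA synthetase, was at 29.4, 30.4 and 31.3 in control and 26.5, 24.8 and 24.7 in CITED2-deficient BMDMs. It was called lower in all 16 alternatives and had a log2 fold change of -0.25 (SE 0.05, limma adjusted p = 0.00199). *Farsa*, the α subunit of the same tetramer, was at 21.2, 20.5 and 24.6 in control and 23.1, 20.9 and 22.4 in CITED2-deficient BMDMs. Its groups overlapped (log2 fold change 0.00, SE 0.07). The difference between the log2 fold changes of the subunits was not tested.

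The other 9 cytosolic synthetases, *Sars*, *Lars*, *Rars*, *Nars*, *Eprs*, *Hars*, *Tars*, *Iars* and *Vars*, had log2 fold changes between -0.04 for *Vars* and 0.08 for *Sars*, and the groups of each overlapped. Of these, *Sars*, *Lars*, *Rars*, *Nars* and *Eprs* were called higher under median-ratio scaling and *Hars*, *Tars*, *Iars* and *Vars* were not. The log2 fold changes of *Sars*, *Lars*, *Rars*, *Nars* and *Eprs* were then 0.19, 0.16, 0.15, 0.13 and 0.13. Their limma adjusted p were 0.0104, 0.0342, 0.0457, 0.00890 and 0.0420. A stretch that matched TGATGNAA was thus found in *Aars* and *Yars*, which were called, and in *Gars*, *Tars* and *Iars*, which were not. *Mars*, *Dars* and *Kars* were called without a match in their windows. *Iars* shares 14.7% of its 31-base words with other annotated genes, chiefly a single predicted gene, so its level is less certain.

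The multi-synthetase complex is a particle that holds several cytosolic synthetases together. Of its 8 genes in the list, 3 were higher and 1 was lower. Of the 12 outside it, 3 were higher and 1 was lower, a comparison that was not tested. Of all genes tested, 16.7% were higher and 34.6% lower. Under median-ratio scaling 6 of the 8 were higher and 0 lower, and 7 of the 12 were higher and 1 lower. The shares of all genes were then 23.1% and 21.3%. The scaffold genes of the complex, *Aimp1*, *Aimp2* and *Eef1e1*, had log2 fold changes between -0.12 and -0.09, and 0 of 3 passed. By the structural class of the catalytic domain, 3 cytosolic genes were higher and 1 was lower in class I (9 genes), with the same counts in class II (10 genes), and this was not tested either. Under median-ratio scaling 6 genes were higher in each class, with 0 lower in class I and 1 in class II. *Eprs*, which joins an enzyme of each class in a single protein, was left out of these counts.

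The mitochondrial synthetases that passed the test were lower. *Cars2* (ENSMUSG00000056228, chr8:11513977-11550783, minus strand), the mitochondrial cysteinyl enzyme, was at 12.4, 12.5 and 12.9 in control and 10.6, 10.3 and 9.39 in CITED2-deficient BMDMs. All CITED2-deficient values were below all control values, in the opposite direction to its cytosolic counterpart *Cars*. The mean went from 12.6 ± 0.275 to 10.1 ± 0.639, a difference of -20.0% and a log2 fold change of -0.30 (SE 0.06, limma adjusted p = 0.00400), on 292 to 365 fragments per library. *Cars2* was called lower in all 16 alternatives, and under median-ratio scaling it had a log2 fold change of -0.20 (limma adjusted p = 0.0269). Without CITED2-deficient replicate 1 the log2 fold change as deposited was -0.33. *Cars2* shares 422 exon bases, 5.83% of its exons, with *Naxd* on the opposite strand. *Naxd* had a mean FPKM of 32.6 in control BMDMs and was itself lower (log2 fold change -0.21, limma adjusted p = 0.0055).

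A further 6 mitochondrial genes were called lower as deposited and not under median-ratio scaling. *Pars2*, the mitochondrial prolyl enzyme, was at 4.61, 3.88 and 4.33 in control and 2.86, 3.25 and 3.51 in CITED2-deficient BMDMs (log2 fold change -0.33, limma adjusted p = 0.0241). *Aars2*, the mitochondrial alanyl enzyme, was at 7.42, 6.64 and 6.50 in control and 5.18, 4.99 and 6.00 in CITED2-deficient BMDMs (log2 fold change -0.30, limma adjusted p = 0.0202). The groups of *Pars2* and *Aars2* did not overlap, but the *Pars2* call was lost in 7 of 15 and the *Aars2* call in 6 of 16 alternatives, including without CITED2-deficient replicate 1. *Hars2*, the histidyl enzyme, was at 29.3, 26.7 and 28.0 in control and 22.2, 25.7 and 22.6 in CITED2-deficient BMDMs (log2 fold change -0.25, limma adjusted p = 0.0105), and its call was lost in no other alternative. *Fars2*, *Vars2* and *Tars2*, the phenylalanyl, valyl and threonyl enzymes, had log2 fold changes of -0.27, -0.25 and -0.20, with limma adjusted p of 0.0216, 0.0267 and 0.0277. The groups of these 3 genes did not overlap, but their calls were lost in 6, 6 and 8 of the 16 alternatives. Under median-ratio scaling the log2 fold changes of *Pars2*, *Aars2* and *Hars2* were -0.25, -0.21 and -0.15, with limma adjusted p of 0.0787, 0.0847 and 0.0962. Those of *Fars2*, *Vars2* and *Tars2* were -0.17, -0.15 and -0.10, with limma adjusted p of 0.105, 0.133 and 0.245.

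The 8 other mitochondrial genes tested, *Rars2*, *Wars2*, *Sars2*, *Nars2*, *Yars2*, *Iars2*, *Ears2* and *Lars2*, did not pass. *Rars2*, the arginyl enzyme, came closest with 17.9, 17.5 and 19.1 in control and 15.9, 14.1 and 17.4 in CITED2-deficient BMDMs (log2 fold change -0.19, limma adjusted p = 0.0556). *Lars2*, the leucyl enzyme, was at 55.4, 70.1 and 57.9 in control and 68.2, 69.1 and 55.2 in CITED2-deficient BMDMs, so that each group covered nearly the same range. *Iars2* shares 2034 exon bases, 22.9% of its exons, with *Rab3gap2* on the opposite strand, so its level is less certain. *Rab3gap2* had a mean FPKM of 48.3 in control BMDMs and was itself lower (log2 fold change -0.14, limma adjusted p = 0.0132). *Nars2* rested on the fewest fragments of any synthetase, as few as 71 in a library, and had a log2 fold change of -0.08 (SE 0.15). *Mars2* fell below the filter on low values, with 0.792, 0.830 and 0.967 in control and 0.714, 0.647 and 0.811 in CITED2-deficient BMDMs. The highest CITED2-deficient value lay above the lowest control value, and with no filter it had a log2 fold change of -0.11 (limma adjusted p = 0.434). By structural class, 2 of 8 class I genes tested (median -0.13) and 5 of 7 class II genes (median -0.25) were lower as deposited. Of all genes tested, 34.6% were lower. Under median-ratio scaling 1 of the 8 class I genes (median -0.04) and 0 of the 7 class II genes (median -0.15) were lower. The difference between the classes was not tested.

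The ratio of a cytosolic gene to its mitochondrial counterpart within a library does not depend on the scaling between libraries, and it was compared for 13 amino acids. In 12 of the 13 pairs the mean log2 ratio was higher with CITED2 deficiency, and the median difference over the pairs was 0.25. For 7 pairs all 3 CITED2-deficient ratios lay above all 3 control ratios, for 0 they lay below, and for 6 they overlapped. The same count was not made for ratios of other genes, so these counts have no background of their own. Of single genes tested, 59.9% were separated in either direction. With 3 libraries against 3, an exact two-sided permutation test cannot give a p below 0.1, so the separation is given without one.

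**Figure D3:**
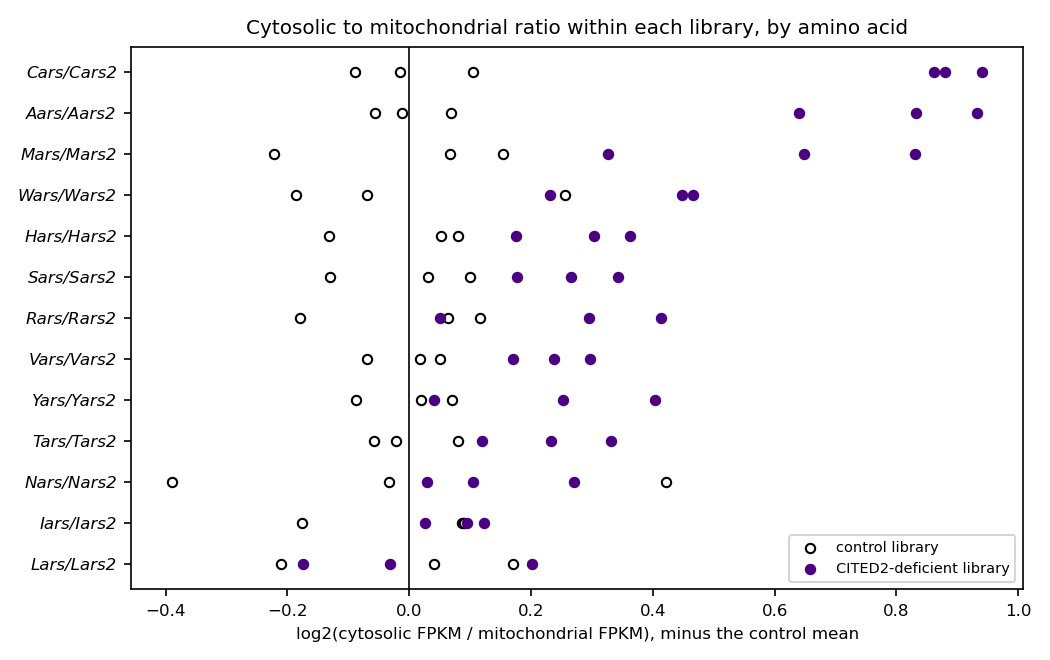
Log2 ratio of cytosolic to mitochondrial FPKM in each library for 13 amino acids, minus the mean of the 3 control libraries, with open circles for control and filled circles for CITED2-deficient libraries. The filled circles lie to the right of every open circle for 7 pairs, most widely for *Cars*/*Cars2* and *Aars*/*Aars2*, and are mixed with them for *Lars*/*Lars2*.

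The cysteinyl pair was furthest apart. *Cars* was 2.42-fold above *Cars2* in FPKM in control BMDMs and 4.50-fold above it in CITED2-deficient BMDMs, a difference of 0.89 on the log2 scale. The alanyl pair followed, at 6.93-fold in control and 12.1-fold in CITED2-deficient BMDMs (0.80). The methionyl pair differed by 0.60, with *Mars2* the lowest of all members. The histidyl, seryl, valyl and threonyl pairs were separated by smaller differences of 0.28, 0.26, 0.23 and 0.23, and for *Hars*, *Sars*, *Vars* and *Tars* this was so although the cytosolic gene did not pass the test by itself. The mean ratio of the histidyl pair was 0.840 in control and 1.02 in CITED2-deficient BMDMs, and *Hars* was still below *Hars2* in CITED2-deficient replicate 2. *Hars* and *Hars2* share 195 exon bases on opposite strands, 7.97% of the exons of *Hars*. The leucyl pair had the mitochondrial gene ahead in either group, with ratios of 0.239 and 0.238. Of 31-base words, 0 were shared between any cytosolic gene and its mitochondrial counterpart on the same strand, so that reads of a pair from the same strand can be told apart.

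Levels differed widely among the members. The median control FPKM was 34.4 over the cytosolic genes and 9.31 over the mitochondrial genes. Cytosolic genes ran from 14.5 ± 0.332 for *Lars* to 98.3 ± 3.91 for *Qars*, and mitochondrial genes from 0.863 ± 0.0923 for *Mars2* to 61.2 ± 7.86 for *Lars2*. *Lars2* and *Hars2* (28.0 ± 1.27) were at levels typical of the cytosolic genes.

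Among the other genes of tRNA charging and delivery, those that passed the test were lower. Of 25 such genes listed, 22 were tested, 0 were higher and 8 (36.4%) were lower, close to the 34.6% of all genes, with a median log2 fold change of -0.12. Under median-ratio scaling 3 were lower, *Dtd2*, *Eef1b2* and *Eef1d*. Among the genes that edit mischarged tRNA, 3 of 3 tested were lower as deposited, led by *Dtd2*, a D-aminoacyl-tRNA deacylase, with 5.98, 4.85 and 5.73 in control and 3.92, 4.21 and 3.92 in CITED2-deficient BMDMs (log2 fold change -0.37, limma adjusted p = 0.00876). Its paralogue *Dtd1* had a log2 fold change of -0.25 (limma adjusted p = 0.0214), which was -0.16 under median-ratio scaling (limma adjusted p = 0.126), and its call was lost in 8 of 16 alternatives, including without control replicate 1 or 2 and without CITED2-deficient replicate 1 or 3 (limma adjusted p of 0.0803, 0.0590, 0.0501 and 0.0624). Among the elongation factors that deliver charged tRNA to the ribosome, 3 of 6 tested were lower. *Eef1b2*, a nucleotide exchange subunit, was at 236, 238 and 239 in control and 182, 172 and 187 in CITED2-deficient BMDMs (log2 fold change -0.40, limma adjusted p = 1.56e-05). *Eef1d* and *Eef1a1* followed with log2 fold changes of -0.23 and -0.11, and under median-ratio scaling *Eef1a1* was at -0.01 (limma adjusted p = 0.812). *Ptrh2*, a peptidyl-tRNA hydrolase, and *Sepsecs*, which completes selenocysteine on its tRNA, had log2 fold changes of -0.33 and -0.28, with limma adjusted p of 0.0501 and 0.0798 under median-ratio scaling. Their calls were lost in 3 of 15 and 5 of 16 alternatives, among them *Ptrh2* without control replicate 3 or CITED2-deficient replicate 2 (limma adjusted p of 0.0501 and 0.0510) and *Sepsecs* when control replicate 1, control replicate 3 or CITED2-deficient replicate 3 was left out (0.0509, 0.0514 and 0.0585). *Tarsl2*, a threonyl-tRNA synthetase-like gene outside the member rule, was at 2.91 ± 0.131 in control and 2.15 ± 0.131 in CITED2-deficient BMDMs (log2 fold change -0.31, limma adjusted p = 0.0284), a call that was lost in 8 of 15 alternatives, including median-ratio scaling (limma adjusted p = 0.0841) and leaving out any control replicate or CITED2-deficient replicate 2 or 3 (0.0523 to 0.0837).

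Genes of the integrated stress response moved in the same libraries. *Atf4* mRNA was at 102, 97.3 and 95.3 in control and 138, 136 and 137 in CITED2-deficient BMDMs, without overlap, and rose by a log2 fold change of 0.47 (SE 0.03, limma adjusted p = 3.92e-06). Of 11 eIF2α kinases and factors of the response, 6 (54.5%) were higher and 2 (18.2%) were lower, against 16.7% and 34.6% of all genes tested. This list was chosen with earlier results of these data known. *Eif2ak2*, which encodes PKR, was at 40.4, 39.0 and 41.5 in control and 93.3, 99.0 and 92.7 in CITED2-deficient BMDMs (log2 fold change 1.22, limma adjusted p = 2.74e-08). *Ddit3*, which encodes the stress-induced factor CHOP, had a log2 fold change of 1.15 (limma adjusted p = 2.03e-07). *Eif2ak3*, which encodes the endoplasmic reticulum kinase PERK, was lower, at 23.0, 20.2 and 21.4 in control and 15.8, 15.4 and 17.2 in CITED2-deficient BMDMs (log2 fold change -0.39, limma adjusted p = 0.000843).

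**Figure D4:**
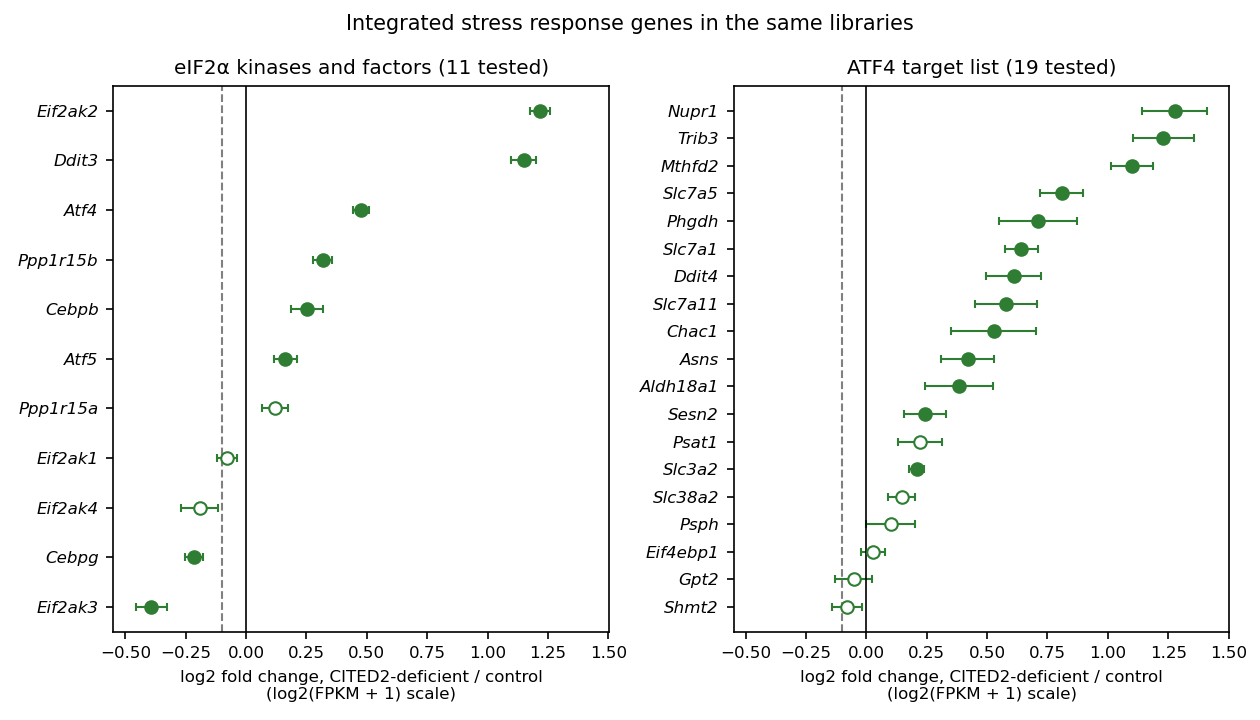
Log2 fold change of integrated stress response genes in CITED2-deficient against control BMDMs on the log2(FPKM + 1) scale, with bars of 1 standard error, 11 kinases and factors on the left and 19 tested ATF4 targets on the right. Filled circles passed the limma test, open circles did not, and the dashed line is the median of all genes (-0.10). Of the 19 targets, 13 passed in the higher direction and 0 in the lower.

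Of 23 listed ATF4 targets outside the synthetase family, 19 were tested, with a median log2 fold change of 0.42. As deposited 13 (68.4%) were higher and 0 were lower, against 16.7% and 34.6% of all genes tested. This list, too, was chosen with earlier results of these data known. Under median-ratio scaling 15 were higher, against 23.1% of all genes tested. *Nupr1*, a small stress-induced chromatin protein gene, was at 2.95, 4.41 and 4.38 in control and 12.3, 9.82 and 10.4 in CITED2-deficient BMDMs (log2 fold change 1.28, limma adjusted p = 5.56e-05). *Trib3*, a pseudokinase gene induced by ATF4 and CHOP, was at 4.76, 5.64 and 3.70 in control and 12.9, 10.9 and 13.0 in CITED2-deficient BMDMs (log2 fold change 1.23, limma adjusted p = 4.72e-05). Both genes were separated between the groups by more than the spread within them. *Mthfd2*, an enzyme of mitochondrial one-carbon metabolism, and *Slc7a5*, the large neutral amino acid transporter, had log2 fold changes of 1.10 and 0.81, with limma adjusted p of 7.66e-06 and 7.32e-05. Without CITED2-deficient replicate 1, 10 of the targets were higher and 1 was lower, a fit for which the share of all genes was not counted. These 4 targets were named because their changes were the largest of the list, so their size does not describe the list as a whole. The list's median of 0.42 lay below the log2 fold changes of *Cars* (0.56) and *Aars* (0.44) and above those of the other synthetases tested. Activity of ATF4, phosphorylation of eIF2α and tRNA charging were not measured.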

How the data were processed

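Ribosomal RNA was removed from total RNA of BMDMs and stranded libraries were sequenced. STAR was used by the authors for mapping to mm10, and the deposited FPKM are Cuffdiff's gene-level values, with a GENCODE annotation and without pooling of replicates. Cufflinks is also named in the submitters' processing notes. Not given in the sources used here were the versions, the GENCODE release and the strand setting of the counting. Cuffdiff needs alignments, so the deposited FPKM were tested with limma 3.58.1 in R 4.3.3 on log2(FPKM + 1), with a variance trend, 2 groups and Benjamini-Hochberg adjustment over the 11687 genes that averaged 1 FPKM or more. A pseudocount understates the change of low genes. The script was tested on simulated data. The study's design text gives 3 mice per genotype, and p-values measure the spread between these libraries, part of which may be technical.

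Fragments were recovered with transcript lengths of GENCODE vM21, to which 22239 of 22248 genes were matched, and for 96.1% of matched genes every library's value came out whole to within 0.02. FPKM of CITED2-deficient libraries rest on more fragments, by a ratio of 1.34. Within a group no 2 libraries agreed within sampling noise (chi-square per gene 2.21 to 5.50), so each was counted once. The alternatives were median-ratio scaling, quantile normalization, pseudocounts of 0.1 and 0.5, no filter and a minimum FPKM of 5, limma without the trend, array weights, the replicate number as a block, limma-voom on the recovered fragments, and each library left out. Coordinates are those of GENCODE vM21, and promoter windows those of RefSeq on GRCm38.p6.

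The members and lists were chosen with earlier results of these data known. The text names every member but 1, which is not reported here and in no count of members, up to 4 genes of each list (past the threshold, groups not overlapping, largest change), and *Cited2*, *Atf4* and *Irf7* as checks. Of the 24 ATF4 targets, *Cbs* was not analysed here.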

Additional observations from a re-analysis of the deposited data

How the results depend on the processing

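Of the 15 synthetases called, 6 kept their call in all 16 alternatives: *Cars*, *Aars*, *Mars*, *Dars*, *Farsb* and *Cars2*. Median-ratio scaling gave 13 cytosolic genes higher and 1 lower (median 0.16), 1 mitochondrial gene lower (median -0.099) and 3 charging partners lower. Quantile normalization gave a cytosolic median of 0.11, 2 mitochondrial genes lower (median -0.13) and 5 partners lower. Without a filter 2 mitochondrial genes and 5 partners were lower. Leaving out each library in turn gave 4 to 6 cytosolic genes higher (median 0.029 to 0.074), 3 to 6 mitochondrial genes lower (median -0.23 to -0.16), 5 to 8 partners lower, and 10 to 13 ATF4 targets higher with 0 to 1 lower. Mitochondrial genes called lower numbered 3 without control replicate 1, control replicate 3 or CITED2-deficient replicate 2, and 4 without CITED2-deficient replicate 1. Partners numbered 5 without control replicate 1 or CITED2-deficient replicate 3. Shares of all genes called were not counted for the analyses that left out a library. The cause of these shifts was not tested. The groups share replicate numbers, but same-numbered libraries did not deviate together (correlations 0.0138, 0.00784 and 0.0402). With the replicate number as a block, 5 cytosolic genes were higher and 8 mitochondrial genes lower. Signs turned only for genes that did not pass the test. *Vars* was at 0.063, *Iars2* at 0.028 and *Yars2* at 0.010 under median-ratio scaling, *Vars* was at 0.018 under quantile normalization and *Farsa* at -0.011 with array weights. Over the analyses that left out a library, values ran from -0.0069 to 0.080 for *Rars*, -0.011 to 0.060 for *Eprs*, -0.0080 to 0.063 for *Hars*, -0.018 to 0.069 for *Tars*, -0.054 to 0.041 for *Iars*, -0.047 to 0.079 for *Farsa*, -0.093 to 0.0090 for *Vars*, -0.15 to 0.0021 for *Yars2* and -0.23 to 0.067 for *Nars2*. The fewest fragments stand behind *Nars2*, *Ears2* and *Pars2*, as few as 71, 105 and 107 in a library.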

Other observations

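Genes of the translation machinery that the synthetases serve were counted after their values were seen. Of 81 cytosolic ribosomal protein genes listed, 80 were tested, 2 were higher and 74 were lower, with a median log2 fold change of -0.38 as deposited and -0.28 under median-ratio scaling. The control libraries summed to 33774, 35177 and 33649 FPKM over these genes and the CITED2-deficient libraries to 27847, 23966 and 25585. Of 77 mitochondrial ribosomal protein genes, 3 (3.90%) were higher and 16 (20.8%) were lower, against 16.7% and 34.6% of all genes tested, with a median log2 fold change of -0.07, which was 0.03 under median-ratio scaling. No test was made between these families and the synthetases.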
